A study of Rattus norvegicus with 12 samples.

Results

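The chaperones of the endoplasmic reticulum (ER) that the unfolded protein response controls were followed across the high-glucose libraries of a cell-culture study. The set is 10 genes of the 20263 listed: HSPA5, HSP90B1, HYOU1, DNAJB9, DNAJB11, SDF2L1, MANF, CRELD2, PDIA4 and HERPUD1. They were chosen by identifier as known ER chaperones, cofactors and partners, with earlier results of these data known. All 10 were high enough to be tested among 12854 genes. All identifiers in the files have the form of human Ensembl genes and stand without symbols, while the labels give rat cells. The symbols are those under which the 10 identifiers were chosen, and which species the reads were counted against cannot be told from the files.

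All groups were wild-type H9C2, a myoblast line from the heart of a rat embryo that the labels call cardiomyocytes, with 3 biological replicates each and 48 h of treatment. HG-Res-SIRT7-Inh received 100 mM D-glucose, 5 μM resveratrol and 5 μM of SirReal2, which the labels call a SIRT7 inhibitor and which is otherwise known as an inhibitor of SIRT2. HG-Res received 100 mM glucose and 5 μM resveratrol, HG received 100 mM glucose alone, and Ctrl received 5.5 mM glucose with no drug. Resveratrol, a polyphenol found in grapes, is widely used to activate sirtuins, and none of the 4 groups had the inhibitor without resveratrol. Whether the cells express cardiomyocyte markers was not analysed here, because no table at hand gives symbols for the identifiers.

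When unfolded proteins build up in the ER, the sensors ATF6, IRE1 and PERK start the unfolded protein response. Cleaved ATF6 and the spliced form of XBP1 raise transcription of the chaperones that fold proteins in the ER and of the machinery that removes proteins that fail to fold. In heart muscle this response is known from ischaemia, pressure overload and diabetes, and HSPA5 is its usual marker. Levels are in CPM, read counts corrected for library depth but not for gene length, so they compare a gene between libraries and not with another gene.

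The ER stress response element, the DNA sequence through which ATF6 and XBP1 act on many of these genes, was looked for in the rat promoters, because many of these genes are known to carry it. The promoters were RefSeq windows on build GRCr8 running from 250 bases before each annotated gene start to 50 after it, and 9 of the 10 members were matched by symbol. The element, CCAAT and CCACG with 9 unspecified bases between them, was searched on both strands. It was found in 3 of them, Hspa5, Hsp90b1 and Creld2, and in 0.0657% of all 33469 promoter windows. The shorter element, ATTGG and CCACG with 1 unspecified base between them, was found in another 3, Dnajb11, Herpud1 and Hyou1, and in 0.0508% of all windows. The stretches around the matches are shown 5′ to 3′ on the strand of the gene, with the matches in capitals. They lie at chr3:38452948-38453015 (Hspa5, plus strand), chr7:23012322-23012494 (Hsp90b1, minus strand), chr7:121789214-121789282 (Creld2, plus strand), chr8:53602669-53602829 (Hyou1, plus strand), chr11:91672800-91672835 (Dnajb11, minus strand) and chr19:10614796-10614856 (Herpud1, minus strand).
Hspa5: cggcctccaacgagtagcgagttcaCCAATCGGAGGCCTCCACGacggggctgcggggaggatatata
Hsp90b1: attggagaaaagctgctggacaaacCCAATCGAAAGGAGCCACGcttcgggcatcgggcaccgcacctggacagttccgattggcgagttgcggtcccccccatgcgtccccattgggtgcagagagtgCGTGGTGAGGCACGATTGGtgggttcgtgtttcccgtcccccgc
Creld2: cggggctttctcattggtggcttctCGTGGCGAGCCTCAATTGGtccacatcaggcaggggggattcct
Hyou1: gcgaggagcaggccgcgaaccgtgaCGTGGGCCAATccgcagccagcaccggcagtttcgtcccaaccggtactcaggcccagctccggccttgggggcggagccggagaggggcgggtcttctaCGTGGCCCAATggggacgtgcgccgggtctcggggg
Dnajb11: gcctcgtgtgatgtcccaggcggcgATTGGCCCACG
Herpud1: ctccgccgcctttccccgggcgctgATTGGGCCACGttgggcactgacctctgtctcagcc

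Hsp90b1 carried the longer element at 2 places, once on each strand, and Hyou1 carried the shorter one at 2 places, both on the strand opposite to the gene. In Hspa5 the match ran from position -43 to -25, where 0 is the annotated start, and in Herpud1 from -124 to -114. The XBP1 and ATF6 element TGACGTGG was found in the Hyou1 promoter alone, where it overlaps the first of the shorter elements by 5 bases, and in 0.595% of all windows. The letters TGATGNAA, the core that ATF4 binds, were found in Herpud1 alone of the members and in 3.98% of all windows. A match shows letters in a window of the labelled species and not that a factor was bound in these cells.

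Depth, recovered from the steps between low values, was 30.29 to 33.17 M reads in the 9 high-glucose libraries. The lowest member value, DNAJB9 in HG replicate 2, rested on about 485 reads, a counting error of 4.54%. The other 9 members had 1612 reads or more in each library. The libraries HG-Res-SIRT7-Inh replicate 3 and HG replicate 2 stood apart at opposite ends of the first principal component, which took 56.1% of the variance of all tested genes, and results for the members are given with and without them. Of the 354 genes in the authors' table of HG against Ctrl, which holds marked genes alone, 0 were members, so Ctrl values of these genes were not analysed here and the response to glucose itself is not described.

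The first question was whether resveratrol changed the chaperones in high glucose. No member passed between HG-Res and HG: 0 of 10 had an adjusted p under 0.05 in limma, against 0.708% of all 12854 genes, and 0 had an unadjusted p under 0.05, against 10.7%. The count was also 0 by limma with voom, which called 0.653% of all genes, and by the q-values of the authors' deposited table, which called 8.47%. In all, 7 members were lower and 3 higher in HG-Res than in HG, beside 50.1% of all genes lower, with a median log2 fold change of -0.14, against -0.0005 for all genes. In bulk RNA, fewer cells of a kind and less RNA per cell cannot be told apart.

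HSPA5 (ENSG00000044574), the Hsp70 of the ER lumen also called BiP and the chaperone that holds the sensors inactive, was at 668, 709 and 713 CPM in HG-Res, against 719.8, 704 and 722 CPM in HG. The groups overlapped, and HG-Res replicate 1 was the lowest of the 6 libraries. The log2 fold change was -0.04, with a 95% interval from -0.27 to 0.20. HSP90B1 (ENSG00000166598), the Hsp90 of the ER also called GRP94, was at 867, 867 and 819 CPM in HG-Res, against 935, 786 and 1122 CPM in HG. Its HG libraries spread on both sides of the HG-Res values, and the log2 fold change of -0.14 was -0.27 without HG replicate 2. HYOU1 (ENSG00000149428), a large Hsp70 relative that releases nucleotide from HSPA5, was at 138, 139 and 137 CPM in HG-Res, against 126, 134 and 122 CPM in HG. All 3 HG-Res libraries lay above the HG libraries, by a log2 fold change of 0.12 ± 0.12 (SE, limma adjusted p = 0.832).

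The J-domain cochaperones, which hand clients to HSPA5, were followed next. DNAJB9 (ENSG00000128590), also called ERdj4 and a repressor of IRE1, was at 26.0, 24.5 and 20.9 CPM in HG-Res, against 25.2, 14.6 and 29.4 CPM in HG. HG replicate 2 alone set the lower end of its range, and without that library the log2 fold change turned from 0.10 to -0.19. DNAJB11 (ENSG00000090520), also called ERdj3, was at 73.3, 80.5 and 81.1 CPM in HG-Res, against 88.0, 85.1 and 87.6 CPM in HG. The groups did not overlap, with HG-Res lower by a log2 fold change of -0.15 ± 0.10 (SE, limma adjusted p = 0.674). SDF2L1 (ENSG00000128228), which works in a complex with DNAJB11, was at 128, 119 and 124 CPM in HG-Res, against 140.2, 170.4 and 121 CPM in HG. The groups overlapped, and the log2 fold change of -0.21 was -0.08 without HG replicate 2.

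MANF (ENSG00000145050), a stress-induced factor that binds HSPA5, was at 173, 180.3 and 196.5 CPM in HG-Res, against 194, 202 and 209.9 CPM in HG. HG-Res replicate 3 lay above HG replicate 1, so the groups overlapped. CRELD2 (ENSG00000184164), a cysteine-rich protein of the ER lumen that is released under stress, was at 92.7, 88.0 and 91.8 CPM in HG-Res, against 101, 121 and 97.0 CPM in HG. The groups did not overlap, and the log2 fold change of -0.22 ± 0.14 (SE) did not pass (limma adjusted p = 0.672). Without HG replicate 2 the value was -0.12.

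PDIA4 (ENSG00000155660), a disulfide isomerase also called ERp72, was at 307, 316 and 317 CPM in HG-Res, against 307, 323 and 308 CPM in HG. Its log2 fold change was 0.0015, with a 95% interval from -0.23 to 0.24. HERPUD1 (ENSG00000051108), an ER membrane protein that recruits the degradation machinery, was at 84.8, 81.4 and 81.4 CPM in HG-Res, against 90.3, 92.9 and 93.6 CPM in HG. The groups did not overlap, and the log2 fold change of -0.16 ± 0.10 (SE) did not pass (limma adjusted p = 0.673). In total 4 of 10 members did not overlap between HG-Res and HG, beside 29.9% of all genes. Of these, 3 were lower in HG-Res, beside 14.8% of all genes, and 1 was higher, beside 15% of all genes.

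Because a missed threshold does not show equal levels, the intervals were read as well. For 8 of 10 members the 95% interval of HG-Res against HG lay within a 1.5-fold change either way, and the exceptions were DNAJB9 and SDF2L1. The half-width of the interval ran from 0.22 (DNAJB11) to 0.64 (DNAJB9) on the log2 scale. These SEs and intervals rest on a spread shared by all 3 groups, including the inhibitor group, where replicates differed most. For HERPUD1 the SD on the log2 scale was 0.155 with the inhibitor, 0.034 in HG-Res and 0.027 in HG. In limma with HG-Res and HG alone, adjusted p-values of the members ran from 0.152 (HERPUD1) to 0.992 (PDIA4). With both libraries that stand apart left out, 0 of 10 members passed, beside 21.2% of all genes. In that fit HSPA5 was at -0.05, HYOU1 at 0.16, DNAJB11 at -0.16, MANF at -0.14, PDIA4 at 0.026 and HERPUD1 at -0.15 on the log2 scale. HSP90B1, at -0.27, came nearest to the threshold (limma adjusted p = 0.0545). Next were DNAJB11 (0.0975), HYOU1 (0.0984) and HERPUD1 (0.114), and the highest was PDIA4 (0.771).

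**Figure D1:**
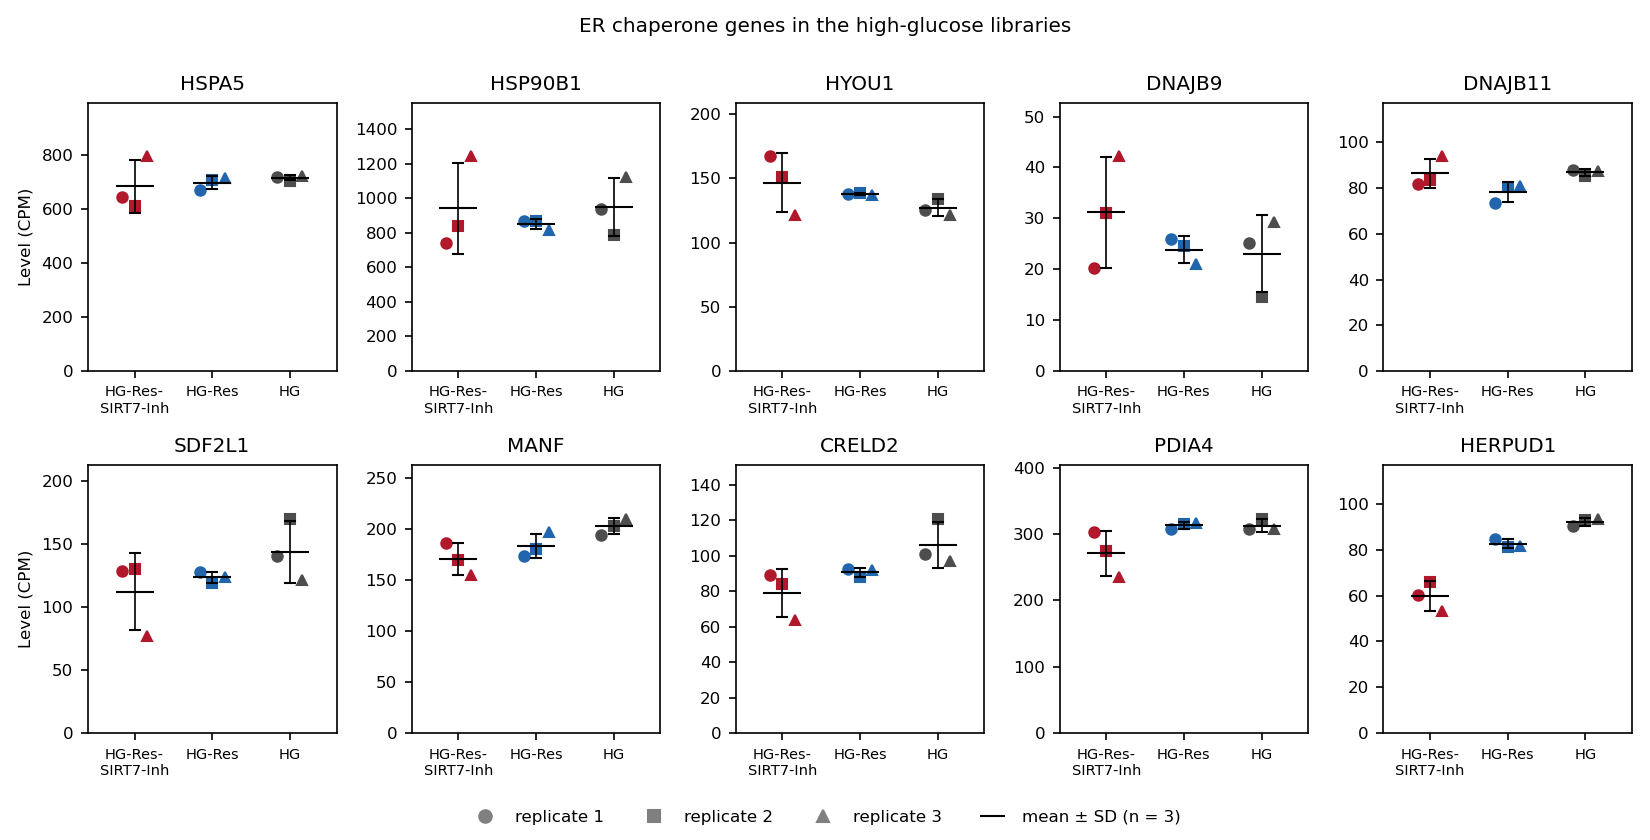
Level in CPM of each of the 10 genes (vertical axis from 0) in the 3 libraries of HG-Res-SIRT7-Inh, HG-Res and HG, with marker shape for the replicate and bars for mean ± SD (n = 3). HERPUD1 lay at 53.2 to 66.1 CPM in HG-Res-SIRT7-Inh, below all libraries of HG-Res and HG, while HSPA5 overlapped between all groups.

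The second question was how the inhibitor altered these genes when resveratrol was present. HERPUD1 fell with the inhibitor and was the 1 member of 10 that passed, against 6.07% of all genes in limma and 4.19% lower. It was at 60.2, 66.1 and 53.2 CPM in HG-Res-SIRT7-Inh, against 84.8, 81.4 and 81.4 CPM in HG-Res. Every HG-Res-SIRT7-Inh library lay below every HG-Res library, and the spread within HG-Res-SIRT7-Inh was wider. The means were 59.9 ± 6.47 CPM in HG-Res-SIRT7-Inh and 82.6 ± 1.96 CPM in HG-Res (SD, n = 3 each), so HERPUD1 was 1.38-fold lower. The log2 fold change was -0.46 ± 0.10 (SE, limma adjusted p = 0.0301), and the authors' deposited table gave a q-value of 0.0073. The count of members was also 1 at an unadjusted p under 0.05 (24.6% of all genes), by limma with voom (5.8%) and by the authors' deposited q-values (8.69%).

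The fall of HERPUD1 against HG-Res had the same direction under all 18 alternatives, with log2 fold changes from -0.54 to -0.38, and passed under 11 of them. Among the 7 that did not pass were the fit with HG-Res-SIRT7-Inh and HG-Res alone (limma adjusted p = 0.0871), the fits without HG replicate 1 or 3 (0.0696 and 0.0548) and those without HG-Res replicate 1, 2 or 3 (0.13, 0.124 and 0.117). It passed without HG-Res-SIRT7-Inh replicate 3 (log2 fold change -0.38, limma adjusted p = 0.0128, 9.14% of all genes called) and without both libraries that stand apart (limma adjusted p = 0.00462, 18.8% of all genes called). Both libraries were picked as extremes of these same data. Fits without them called more of all genes than the 6.07% with all libraries, so the smaller p-values are not independent support.

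The other 9 members did not pass, with adjusted p-values in limma from 0.232 (PDIA4) upward. HSPA5 was at 644, 611 and 794 CPM in HG-Res-SIRT7-Inh, against 668, 709 and 713 CPM in HG-Res. HG-Res-SIRT7-Inh replicate 3 was above all HG-Res libraries and the other replicates below them, and the log2 fold change was -0.04 with a 95% interval from -0.27 to 0.20. Without replicate 3 the log2 fold change was -0.15 and did not pass (limma adjusted p = 0.151).

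HSP90B1 was at 743, 838 and 1243 CPM in HG-Res-SIRT7-Inh, against 867, 867 and 819 CPM in HG-Res. Its direction rested on replicate 3, since the log2 fold change was 0.11 with that library and -0.11 without it. HYOU1 was at 167, 151 and 121 CPM in HG-Res-SIRT7-Inh, against 138, 139 and 137 CPM in HG-Res. Here replicate 3 was the lowest library and the others were above HG-Res. Its log2 fold change was 0.07 with all libraries, and without both that stand apart it was 0.20 and passed (limma adjusted p = 0.0492).

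DNAJB9 was at 20.3, 31.1 and 42.2 CPM in HG-Res-SIRT7-Inh, against 26.0, 24.5 and 20.9 CPM in HG-Res, and its 3 inhibitor libraries spanned both sides of the HG-Res range. DNAJB11 was at 81.9, 83.7 and 93.9 CPM in HG-Res-SIRT7-Inh, against 73.3, 80.5 and 81.1 CPM in HG-Res. All 3 inhibitor libraries were above HG-Res, by a log2 fold change of 0.14 ± 0.10 (SE, limma adjusted p = 0.364). SDF2L1 was at 129, 131 and 77.0 CPM in HG-Res-SIRT7-Inh, against 128, 119 and 124 CPM in HG-Res, and only replicate 3 was low. Without replicate 3 its log2 fold change turned from -0.18 to 0.07.

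MANF was at 186, 169 and 155 CPM in HG-Res-SIRT7-Inh, against 173, 180.3 and 196.5 CPM in HG-Res. CRELD2 was at 89.4, 84.2 and 64.0 CPM in HG-Res-SIRT7-Inh, against 92.7, 88.0 and 91.8 CPM in HG-Res. Both genes overlapped between the groups, with log2 fold changes of -0.11 (MANF) and -0.21 (CRELD2). These rested on replicate 3 of the inhibitor group, and without it they were -0.044 (MANF) and -0.065 (CRELD2). PDIA4 was at 303, 275 and 235 CPM in HG-Res-SIRT7-Inh, against 307, 316 and 317 CPM in HG-Res. Its groups did not overlap, and PDIA4 was lower by a log2 fold change of -0.22 ± 0.10 (SE, limma adjusted p = 0.232). Without replicate 3 it was -0.12. The positive values of DNAJB9 and DNAJB11 were also smaller without that library, at 0.078 (DNAJB9) and 0.082 (DNAJB11), against 0.32 and 0.14 with it.

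Over the 10 members, 6 were lower and 4 higher in HG-Res-SIRT7-Inh than in HG-Res, beside 45% of all genes lower, with a median log2 fold change of -0.07, against 0.04 for all genes. Groups did not overlap in 3 members, beside 33.7% of all genes. The 95% interval lay within a 1.5-fold change for 7 of 10 members, and the exceptions were DNAJB9, SDF2L1 and HERPUD1.

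The last comparison set resveratrol with the inhibitor against high glucose alone. It shares the HG-Res-SIRT7-Inh libraries with the second comparison and the HG libraries with the first. HERPUD1 again fell, and was the 1 member of 10 to pass, beside 10.8% of all genes and 6.5% lower. It was at 60.2, 66.1 and 53.2 CPM in HG-Res-SIRT7-Inh, against 90.3, 92.9 and 93.6 CPM in HG, with no overlap. The means were 59.9 ± 6.47 CPM in HG-Res-SIRT7-Inh and 92.3 ± 1.74 CPM in HG (SD, n = 3 each), and HERPUD1 was 1.54-fold lower. The log2 fold change was -0.62 ± 0.10 (SE, limma adjusted p = 0.00561), with a 95% interval from -0.85 to -0.39. The authors' deposited table gave a q-value of 0.0012 and marked HERPUD1 down. By limma with voom the count was also 1, beside 10.7% of all genes, and by the authors' deposited q-values 1, beside 7.84%. At an unadjusted p under 0.05 it was 3, beside 27.9% of all genes, with CRELD2 and MANF the others.

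This fall of HERPUD1 passed under 17 of 18 alternatives, with log2 fold changes from -0.70 to -0.54. The exception was the fit with HG-Res-SIRT7-Inh and HG alone (limma adjusted p = 0.0529). Without both libraries that stand apart it was -0.54 (limma adjusted p = 0.000866).

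CRELD2 and MANF were also lower in HG-Res-SIRT7-Inh than in HG in every library, but neither passed. CRELD2 was at 89.4, 84.2 and 64.0 CPM in HG-Res-SIRT7-Inh, against 101, 121 and 97.0 CPM in HG, a log2 fold change of -0.43 ± 0.14 (SE, limma adjusted p = 0.0849). The size of that difference rested on the libraries that stand apart. Without both it was -0.19 (limma adjusted p = 0.06), and it passed when the inhibitor group lacked replicate 1 (-0.52, limma adjusted p = 0.0419, 16.9% of all genes called). MANF was at 186, 169 and 155 CPM in HG-Res-SIRT7-Inh, against 194, 202 and 209.9 CPM in HG, a log2 fold change of -0.25 ± 0.10 (SE, limma adjusted p = 0.146), or -0.18 without both.

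PDIA4 was at 303, 275 and 235 CPM in HG-Res-SIRT7-Inh, against 307, 323 and 308 CPM in HG, with no overlap and a log2 fold change of -0.21 ± 0.10 (SE, limma adjusted p = 0.212). Without replicate 3 of the inhibitor group the PDIA4 value was -0.12, and without both libraries that stand apart -0.091. SDF2L1 was at 129, 131 and 77.0 CPM in HG-Res-SIRT7-Inh, against 140.2, 170.4 and 121 CPM in HG. Replicates 1 and 2 of the inhibitor group lay within the HG range, and the log2 fold change of -0.38 was -0.13 without replicate 3 and -0.0066 without both. The groups did not overlap in 4 members, beside 28.1% of all genes. All 4 were lower in HG-Res-SIRT7-Inh, beside 15.3% of all genes in that direction.

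The general chaperones showed no call with all libraries, and calls appeared when libraries that stand apart were left out. HSPA5 was at 644, 611 and 794 CPM in HG-Res-SIRT7-Inh, against 719.8, 704 and 722 CPM in HG, and its log2 fold change of -0.08 was not past the threshold (limma adjusted p = 0.659). With replicate 3 of the inhibitor group left out it was -0.19 (limma adjusted p = 0.049), in a fit that called 21.1% of all genes. HYOU1 was at 167, 151 and 121 CPM in HG-Res-SIRT7-Inh, against 126, 134 and 122 CPM in HG, a log2 fold change of 0.19 (limma adjusted p = 0.327). Without replicate 3 it was 0.32 (limma adjusted p = 0.0176), in the opposite direction to HSPA5.

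HSP90B1 was at 743, 838 and 1243 CPM in HG-Res-SIRT7-Inh, against 935, 786 and 1122 CPM in HG, a log2 fold change of -0.03 (limma adjusted p = 0.924). Without both libraries that stand apart it was -0.38 (limma adjusted p = 0.0159). In that fit 4 members passed, HSPA5, HSP90B1 and HERPUD1 lower and HYOU1 higher, but so did 31% of all genes. Which libraries to leave out was decided from these same data.

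The cochaperones DNAJB9 and DNAJB11 completed the set. DNAJB9 was at 20.3, 31.1 and 42.2 CPM in HG-Res-SIRT7-Inh, against 25.2, 14.6 and 29.4 CPM in HG, a log2 fold change of 0.42 with a 95% interval from -0.22 to 1.06. Without both libraries it was -0.11. DNAJB11 was at 81.9, 83.7 and 93.9 CPM in HG-Res-SIRT7-Inh, against 88.0, 85.1 and 87.6 CPM in HG, a log2 fold change of -0.01 with an interval from -0.23 to 0.21, or -0.083 without both. Over the 10 members 8 were lower and 2 higher, beside 45.4% of all genes lower, with a median log2 fold change of -0.14, against 0.04 for all genes.

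**Figure D2:**
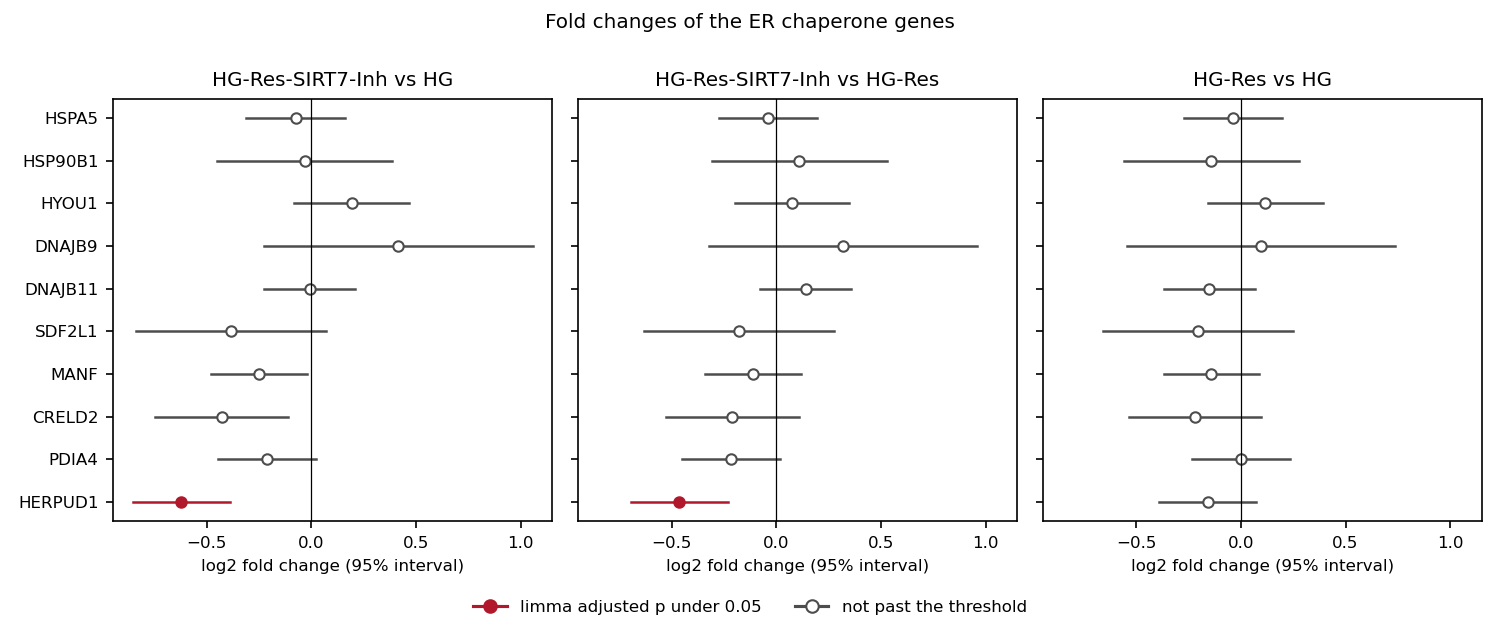
log2 fold change (horizontal axis, points) with 95% interval (lines) of each of the 10 genes in the 3 comparisons, from one limma fit over 9 libraries. Filled red points mark an adjusted p under 0.05, which HERPUD1 alone reached, in both comparisons of HG-Res-SIRT7-Inh.

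With all libraries, the order of the group means differed between members. HERPUD1, CRELD2, MANF, SDF2L1 and HSPA5, 5 of 10, had their lowest mean in HG-Res-SIRT7-Inh, an intermediate one in HG-Res and their highest in HG. For HERPUD1 the step to HG-Res-SIRT7-Inh passed the threshold, and HG-Res did not differ from HG past it. For the other 4 no neighbours did. DNAJB9 and HYOU1 had the opposite order, with the highest mean in HG-Res-SIRT7-Inh. HSP90B1 and DNAJB11 were lowest in HG-Res, and PDIA4 was highest there, again with no neighbours past the threshold. Some of these orders depended on the libraries that stand apart. Without both, SDF2L1 was lowest in HG-Res (123.6 CPM, against 129.8 with the inhibitor and 130.7 in HG). DNAJB9 was then highest in HG (27.25 CPM, against 25.67 with the inhibitor and 23.83 in HG-Res). HSP90B1 then fell from 1029 CPM in HG to 851 in HG-Res and 790 with the inhibitor. The other members kept their order. How common each order was among all genes was not tested.

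The members also differed in how they varied between replicates. In HG-Res-SIRT7-Inh replicate 3, 4 members lay above both other replicates, namely DNAJB9, HSP90B1, HSPA5 and DNAJB11, and 6 lay below both. DNAJB9 was 1.65-fold and HSP90B1 1.57-fold higher there than in the other replicates, whereas SDF2L1 was 1.68-fold and CRELD2 1.35-fold lower. In HG replicate 2 the departures had the opposite sign in 10 of 10 members. These libraries lie at opposite ends of the first principal component of all tested genes. The share of all genes with opposite signs is not given here, so the count is not shown to be particular to the members. DNAJB9 was 1.8-fold and HSP90B1 1.3-fold lower there than in the other HG replicates, whereas SDF2L1 was 1.3-fold and CRELD2 1.22-fold higher. For MANF and HERPUD1 the HG departure was within the difference between the other replicates, at log2 differences of 0.002 and 0.01.

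**Figure D3:**
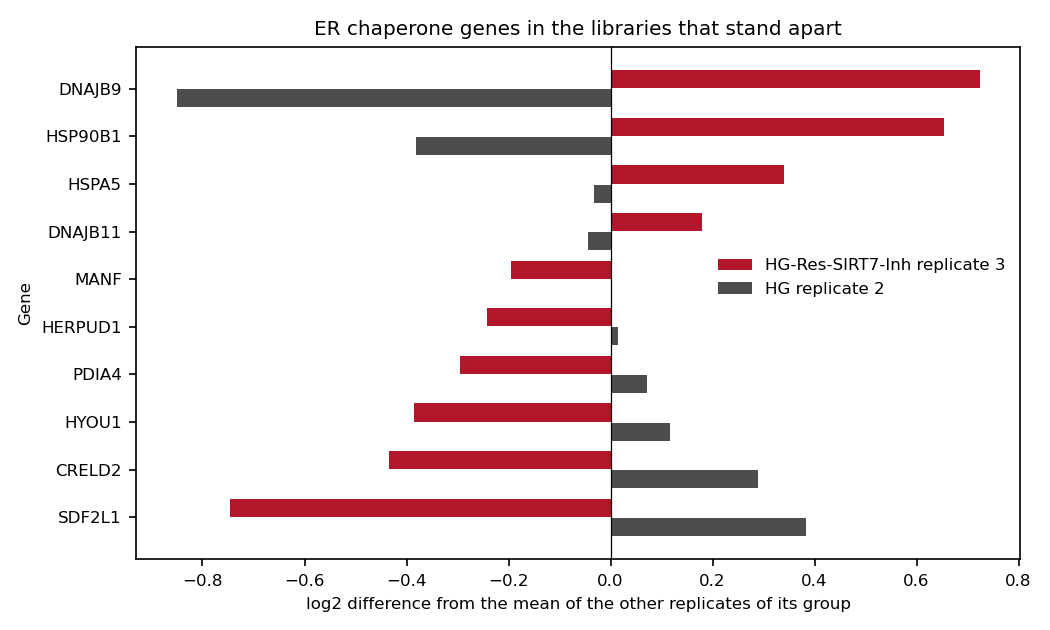
log2 difference of HG-Res-SIRT7-Inh replicate 3 (red) and HG replicate 2 (grey) from the mean of the other replicates of their group (horizontal axis) for each of the 10 genes. The bars of a gene point in opposite directions, from 0.72 and -0.85 for DNAJB9 to -0.75 and 0.38 for SDF2L1.

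The members did not move together. Across the 9 libraries, which share these departing libraries, the correlation between members ranged from -0.84 to 0.94 over 45 pairs and was positive in 20. SDF2L1 and CRELD2 moved most alike (0.94), and CRELD2, PDIA4, MANF and HERPUD1 had correlations from 0.78 to 0.87 with each other. DNAJB9 ran against CRELD2 (-0.84) and SDF2L1 (-0.84). These correlations include differences between groups. With group means removed, the correlation ranged from -0.97 to 0.98 over the 45 pairs and was positive in 21. Among CRELD2, PDIA4, MANF and HERPUD1 it then ran from 0.38 (MANF with HERPUD1) to 0.89 (CRELD2 with PDIA4). PDIA4 followed the first principal component of all genes most closely, with a correlation of -0.97, beside 0.90 for DNAJB9, -0.89 for CRELD2, -0.77 for HERPUD1, 0.28 for HSPA5 and -0.23 for HYOU1. What sets these libraries apart was not tested.

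By the median, replicates of the members agreed most closely in HG-Res, although HSPA5, DNAJB11, MANF and HERPUD1 had smaller SDs in HG. The median SD of the members on the log2 scale was 0.22 with the inhibitor, 0.05 in HG-Res and 0.06 in HG, against 0.24, 0.07 and 0.13 for all genes. DNAJB9 had the widest spread in each group, with SDs of 0.51 in HG-Res-SIRT7-Inh, 0.16 in HG-Res and 0.50 in HG. HYOU1 had an SD of 0.23 in HG-Res-SIRT7-Inh, against 0.0067 in HG-Res.

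**Figure D4:**
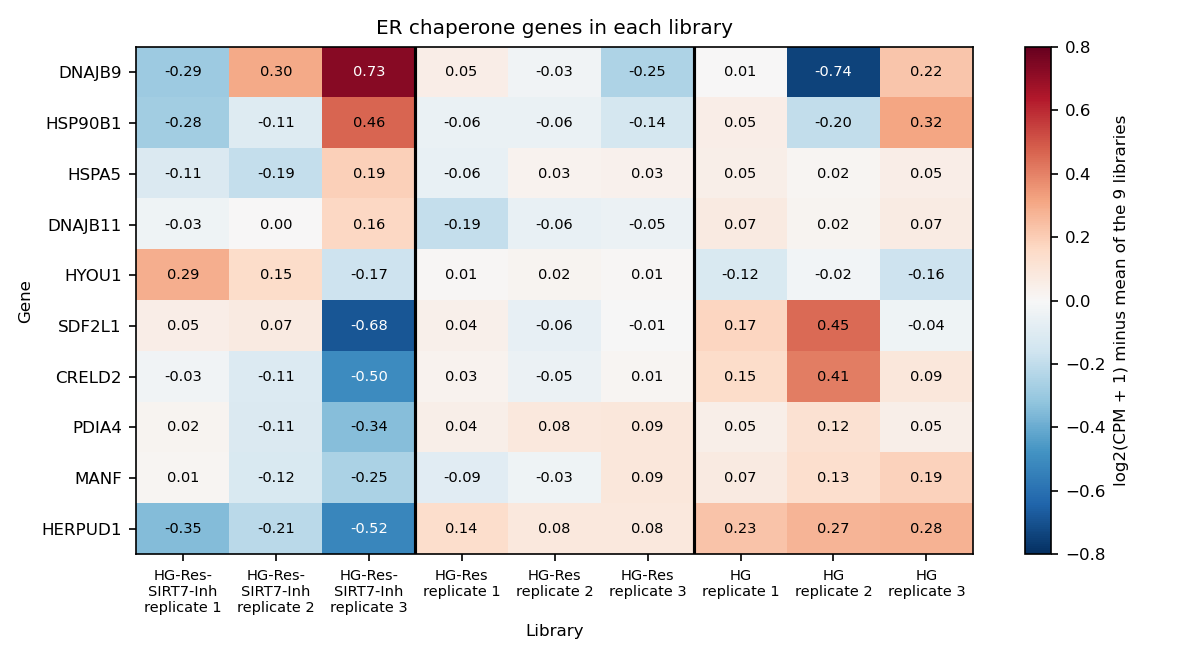
log2(CPM + 1) of each gene (rows) in each library (columns) minus its mean over the 9 libraries, in colour and as printed values. DNAJB9 reached 0.73 in HG-Res-SIRT7-Inh replicate 3 and -0.74 in HG replicate 2, SDF2L1 -0.68 and 0.45, and HERPUD1 was negative in the 3 HG-Res-SIRT7-Inh libraries and positive in the other 6.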

How the data were processed

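Per the labels' protocols, polyA-selected RNA from H9C2 cells was sequenced as paired reads. Per the submitters' processing notes, Trimmomatic and build rn6 were used; the aligner, counter and annotation are not given there or in the labels, and 20263 of 20263 identifiers carry the human Ensembl prefix. The authors' value columns are headed TPM but behave as CPM: low values are whole multiples of 1 step, between 99.36% and 100% of them within the rounding. When values had to lie within 0.1 of a whole read, 57.4% passed in the lowest library. Values are rounded to 0.01 CPM and 1 read was 0.03162 CPM there, so rounding alone can break that limit. It cannot show whether the reads were whole. The planned count models were set aside because the limit was missed, and limma with voom was run on the approximate reads recovered from the steps. For each gene the authors also deposited a p-value, a q-value and a log2 fold change, whose test the sources do not state.

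The 12854 genes that reached 0.5 CPM in 3 or more of the 9 libraries were fitted as log2(value + 1) with limma 3.58.1 in R 4.3.3, by group means over HG-Res-SIRT7-Inh, HG-Res and HG, empirical Bayes with a trend, and Benjamini-Hochberg adjustment over all genes at 0.05. Fold changes are on that scale. P-values measure the spread between samples labelled biological replicates, and the 9 replicate pairs differed by 5.11 to 165 times the counting variance. With 3 libraries against 3, an exact permutation test could not go below 0.1, so none was used. The fit was tested on simulated data. The 10 members were described by name; members, lists and alternatives were chosen with earlier results of these data known. Lists of other pathway genes and of cell type markers had been drawn up by symbol, and were not analysed because no table pairs symbols with the identifiers.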

Additional observations from a re-analysis of the deposited data

How the results depend on the processing

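Each count of members and each of the 30 member fold changes was recomputed under 18 alternatives, 540 fold changes in all, and the counts also with a limit of 1.5-fold. The count of members between HG-Res and HG was 0 under all of them, and listed members between HG and Ctrl stayed at 0 with a q-value limit. With the inhibitor against HG-Res (1 member) the count was 0 with 2 groups alone, 0 with the replicate block, 0 at 1.5-fold or more, 2 without both libraries that stand apart, and 0 to 1 when any single library was left out. With the inhibitor against HG (1 member) it was 0 with 2 groups alone, 4 without both libraries, and 1 to 3 when any single library was left out. Same-numbered libraries had correlations of deviations from -0.547 to 0.636, over 0.1 in 4 of 9 pairs, and 3 of 9 libraries correlated best with their own number, so the numbers were not taken as pairs. With the replicate block the HERPUD1 fall against HG-Res had a limma adjusted p of 0.0594, and no other call on a member changed.

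Fold changes changed sign in 19 of the 540 and none of these passed the threshold. Without both libraries DNAJB9 was at -0.19 between HG-Res and HG and -0.11 between the inhibitor group and HG, and between the inhibitor group and HG-Res HSP90B1 was at -0.11 and SDF2L1 at 0.07. Ranges with a single library or that pair left out, for those that changed sign, were -0.011 to 0.026 (PDIA4) and -0.19 to 0.29 (DNAJB9) between HG-Res and HG. Between the inhibitor group and HG-Res they were -0.15 to 0.038 (HSPA5), -0.11 to 0.26 (HSP90B1), -0.025 to 0.20 (HYOU1) and -0.31 to 0.071 (SDF2L1). Between the inhibitor group and HG they were -0.38 to 0.12 (HSP90B1), -0.083 to 0.029 (DNAJB11) and -0.11 to 0.69 (DNAJB9). The cause was not tested. The planned count models and the lists of other pathway genes were not run. The voom setting was added after seeing the data. The counting error of these genes was at most 4.54%, at their lowest value.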

Other observations

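The 10 genes together took 2424, 2440 and 2878 CPM in HG-Res-SIRT7-Inh, 2558, 2604 and 2581 CPM in HG-Res, and 2727, 2635 and 2912 CPM in HG. In this sum HG-Res-SIRT7-Inh replicate 3 was above the other inhibitor libraries. HSPA5 and HSP90B1 supplied 794 and 1243 of its 2878 CPM. In that library 4 members lay above both other replicates and 6 lay below both. The mean of the 10 centred log2 values was -0.07, -0.03 and -0.09 in HG-Res-SIRT7-Inh, -0.0077, -0.0073 and -0.012 in HG-Res, and 0.07, 0.05 and 0.11 in HG. Without HERPUD1 the mean of the other 9 was -0.04, -0.014 and -0.045 in HG-Res-SIRT7-Inh, -0.024, -0.017 and -0.023 in HG-Res, and 0.055, 0.021 and 0.086 in HG, and the libraries with the inhibitor overlapped with HG-Res. With the mean of all 10 genes, which contains each of them, HERPUD1 had a correlation of 0.90 over the 9 libraries. The others were MANF 0.80, CRELD2 0.73, PDIA4 0.61, SDF2L1 0.56, HSPA5 0.11, HSP90B1 0.09, DNAJB11 0.05, DNAJB9 -0.30 and HYOU1 -0.49. The mean therefore does not stand for every member. Among 10027 other genes with a mean of at least 5 CPM, ENSG00000204856 and ENSG00000186340 followed the mean most closely, at 0.978 and 0.977, and stand without symbols in the files. These are the highest of 10027 correlations over 9 libraries, and how high such a maximum would be by chance was not tested.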
